A study of Mus musculus with 4 samples.

Results

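Transcripts of 10 genes of purine nucleotide metabolism were examined in B16F10 cells, a mouse melanoma line of the C57BL/6 strain, with a knockdown of Lmna, which encodes the A-type lamins of the nuclear lamina. The members were Hprt, Aprt and Adk of the salvage route, Impdh1 and Impdh2 of the guanine branch, and Ppat, Gart, Pfas, Paics and Atic of synthesis from small precursors. They were taken by gene symbol from the 24421 symbols of the count table, and all 10 were found. The members were chosen by the counts of this same comparison, because Hprt, a usual reference gene, was far lower in the knockdown libraries. Their values are therefore given below as a description. No p-value of a member is printed, and nothing is read from which members, or how many, pass a limit.

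The series held 4 libraries of bulk MARS-seq, which counts the 3′ ends of polyadenylated transcripts. In 2 libraries (shControl 1 and 2) the cells had been transduced with a lentiviral control vector and in 2 (shLmna 1 and 2) with one encoding a short hairpin RNA (shRNA) against exon 8 of Lmna. All cells were grown in DMEM with 10% serum and selected with puromycin at 2.5 µg/ml, and each arm was 1 stably transduced line. The sample labels call the control a control shRNA while the study's reagent list calls the vector empty, so that an effect of carrying any hairpin cannot be told apart from an effect of losing Lmna. No source used here says that libraries of a group were transduced separately, and p-values then measure only the spread between libraries.

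Library totals ran from 2494880 to 3808843 counts. Lmna was counted 2826 and 2684 times in the shControl libraries against 331 and 480 times in the shLmna libraries, a log2 fold change of -2.61 (SE 0.142), so the libraries went with their labels. Of 11 melanocyte markers, 9 had at least 10 counts in each library, and the summed level of the list, most of it from Pmel, Dct, Tyrp1 and Mlana, was 20840 to 25630 CPM (counts scaled to a common library size). The markers did not move together, as Sox10 fell by 0.89 on the log2 scale (edgeR adjusted p = 0.00161) and Mlana, Pmel and Gpr143 rose by 0.51, 0.41 and 0.51 (edgeR adjusted p = 0.00510, 0.0258 and 0.0448). Tyr and Trpm1 fell short of 10 counts in at least 1 library. Tyr had 1 and 1 counts in the shControl libraries and 3 and 7 in the shLmna libraries, and Trpm1 had 26 and 26 against 3 and 19. The part of the markers in the results below was not tested. Of 17 markers of immune, endothelial, epithelial and mesenchymal cells, 11 were at 0 throughout, Ptprc, Epcam and Cdh5 among them, and the summed level of the list was 18.9 and 20.9 CPM in shControl and 11.5 and 11.4 CPM in shLmna. Among those counted, Pdgfrb had 20 and 38 counts in the shControl libraries and 23 and 22 in the shLmna libraries. Krt8 had 16 and 9 against 0 and 1, and Col1a2 16 and 13 against 4 and 7. In bulk RNA fewer cells of a type and less RNA per cell cannot be told apart.

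Purine nucleotides carry energy and signals and are the building blocks of RNA and DNA. Cells make them by a long route from ribose phosphate, amino acids and formyl groups carried by folate, which ends in inosine monophosphate (IMP), or they recover free bases and nucleosides by salvage. Dividing cells commonly rely on both routes. HPRT returns hypoxanthine and guanine to their nucleotides, and its gene is also widely used as a reference in quantitative PCR.

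Promoter windows are shown for Hprt, the member with the greatest difference between groups, and for Ppat and Paics, neighbouring members read in opposite directions that differed from one another in direction. Each window runs from 250 bases before to 50 bases after a RefSeq start in GRCm38.p6 and is printed 5′ to 3′ on the strand of the gene. Capitals mark the GC box letters GGGCGG or CCGCCC and the E-box letters CACGTG.
Hprt, chrX:52987828-52988127, plus strand: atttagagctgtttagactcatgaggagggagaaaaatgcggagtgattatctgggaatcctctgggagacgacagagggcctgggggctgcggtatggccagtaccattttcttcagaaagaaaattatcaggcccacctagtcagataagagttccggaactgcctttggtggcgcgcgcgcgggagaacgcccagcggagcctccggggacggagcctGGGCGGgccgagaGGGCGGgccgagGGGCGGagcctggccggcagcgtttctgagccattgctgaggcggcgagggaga
Ppat, chr5:76951529-76951828, minus strand: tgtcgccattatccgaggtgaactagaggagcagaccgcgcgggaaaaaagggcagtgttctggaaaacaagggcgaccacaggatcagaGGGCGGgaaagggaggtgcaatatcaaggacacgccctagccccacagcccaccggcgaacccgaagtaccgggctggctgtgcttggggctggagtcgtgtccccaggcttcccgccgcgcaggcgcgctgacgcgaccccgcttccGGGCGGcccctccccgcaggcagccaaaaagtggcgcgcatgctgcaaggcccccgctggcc
Paics, chr5:76951052-76951351, plus strand: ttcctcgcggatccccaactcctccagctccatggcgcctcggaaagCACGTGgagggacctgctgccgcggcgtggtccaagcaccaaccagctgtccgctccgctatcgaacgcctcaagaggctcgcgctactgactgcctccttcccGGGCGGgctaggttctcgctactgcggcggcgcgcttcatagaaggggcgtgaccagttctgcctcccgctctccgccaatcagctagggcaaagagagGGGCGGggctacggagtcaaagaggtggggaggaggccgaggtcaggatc

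The Hprt window held 22 CpG dinucleotides and 61.0% G and C, against medians of 7 and 52.7% over 32851 windows of the same length. Windows were found for 9 of the 10 members, all but Pfas, and some members had more than 1. Read on both strands, the GC box was present for 9 of these 9 members and in 35.7% of all windows. The E-box, which is its own reverse complement, was present for Impdh2, Atic and Paics, or 3 of 9, and in 7.2% of all windows. The letters CCAAT or ATTGG were present for 5 of 9 members and in 37.4% of all windows, and TATAAA or TTTATA for Impdh2 alone of the 9 and in 13.6%. These matches describe letters and are not evidence of a bound factor.

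The gene of Hprt spans bases 52988137 to 53021659 on the plus strand of chromosome X in GRCm38, with 9 exons in the transcript used, and the RefSeq start used for its window lies just upstream. Ppat (76913249 to 76951578, minus strand) and Paics (76951307 to 76967509, plus strand) lie head to head on chromosome 5, and their spans overlap by 272 bases at their 5′ ends, away from the counted 3′ ends. Of the other members, Atic is on chromosome 1, Impdh1 on 6, Aprt on 8, Impdh2 on 9, Pfas on 11, Adk on 14 and Gart on 16. In the GENCODE annotation the 3′ ends of Gart and Impdh2 overlap the annotated genes Gm15964 and Ndufaf3 on the opposite strand, and Aprt lies within the span of Gm20388. Use of strand in counting is not given in the sources used here, so reads of such partners cannot be told apart. Impdh2 is uncertain in another way, as 86.0% of the 31-base words in its counted end also occur in the pseudogene Impdh2-ps. For Hprt, Adk, Impdh1, Ppat, Gart and Pfas the share of words found in the transcripts of any other gene was 0.0%. Words were compared in the direction of the transcripts only, so partners on the opposite strand are not covered.

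Among the salvage genes Hprt stood apart. It had 391 and 539 raw counts in the shControl libraries and 42 and 55 in the shLmna libraries. Scaled to library size by TMM, its level was 121 and 144 CPM in shControl and 16.6 and 15.0 CPM in shLmna. Both shLmna libraries were far below both shControl libraries, and the replicates lay close together. The means were 133 ± 16.4 CPM (SD, n = 2) and 15.8 ± 1.15 CPM (SD, n = 2), or 8.40-fold lower with the hairpin. The log2 fold change was -3.08 (SE 0.174), which placed Hprt 225th from the lowest of 9150 tested genes. It ran from -3.20 to -2.95 when any 1 library was left out and shrank to -1.08 in the log2 values that the authors had corrected with ComBat. The shrinkage was not particular to Hprt, as Lmna went from -2.61 to -1.54 in those values.

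Aprt, which salvages adenine, had 1922 and 2074 counts in the shControl libraries and 1303 and 1671 in the shLmna libraries. Scaled to CPM it was at 595 and 555 against 515 and 455, so the groups did not overlap, and the log2 fold change was -0.25 (SE 0.123), or -0.15 without shLmna 2. Adk, which phosphorylates adenosine, had 157 and 189 counts in the shControl libraries and 138 and 219 in the shLmna libraries. Its level was 48.6 and 50.6 CPM against 54.6 and 59.7 CPM, a log2 fold change of 0.21 (SE 0.151). As a description, Aprt and Adk did not share the size of the Hprt difference, on which the members were chosen, nor did Adk share its direction. Within each library, Hprt had 0.203 and 0.260 counts for each Aprt count in shControl and 0.0322 and 0.0329 in shLmna.

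**Figure D1:**
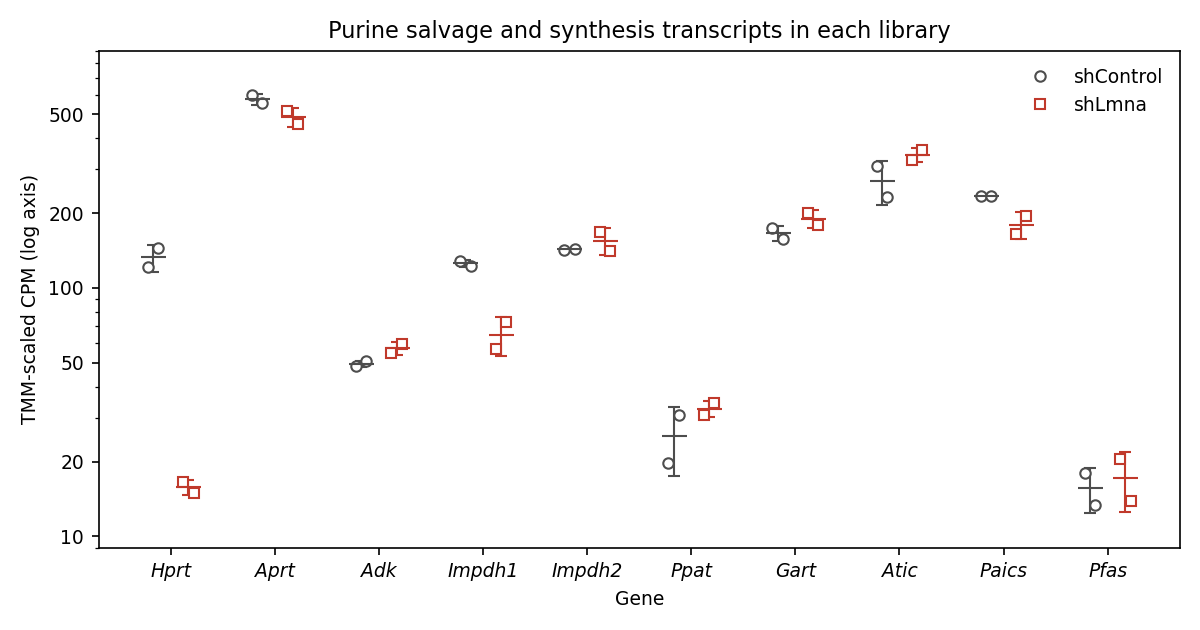
TMM-scaled CPM of the 10 members on a log axis, with circles for the shControl libraries, squares for the shLmna libraries, and horizontal lines and bars for the mean and SD of the 2 libraries of a group. Hprt lies above 100 CPM in shControl and below 20 CPM in shLmna, Impdh1 has the next widest gap, and Impdh2 and Pfas overlap between groups.

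IMP dehydrogenase takes IMP towards guanine nucleotides and has isoforms encoded by Impdh1 and Impdh2. Impdh1 had 414 and 459 counts in the shControl libraries and 143 and 267 in the shLmna libraries. Its level was 128 and 123 CPM against 56.6 and 72.8 CPM, with means of 126 ± 3.78 and 64.7 ± 11.5 CPM (SD, n = 2). This is 1.94-fold lower, with a log2 fold change of -0.95 (SE 0.151), just outside the limit of 1 in size used for a call. Without shLmna 2 it was -1.14, which is past that limit. Impdh2 had 460 and 537 counts in the shControl libraries and 425 and 519 in the shLmna libraries. At 143 and 144 CPM against 168 and 141 CPM the groups overlapped, and the log2 fold change was 0.11 (SE 0.130), or -0.01 without shLmna 1. Within a library, Impdh1 had 0.900 and 0.855 counts for each Impdh2 count in shControl and 0.336 and 0.514 in shLmna, a ratio to which the shared words of Impdh2 apply.

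The summed level of the synthesis genes overlapped between the groups. The sum of Ppat, Gart, Pfas, Paics and Atic was 756 and 667 CPM in shControl and 743 and 781 CPM in shLmna, with means of 711 ± 62.8 and 762 ± 26.9 CPM (SD, n = 2). The shLmna values lie on either side of the higher shControl value. The 5 genes did not all point the same way.

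Ppat encodes the amidotransferase of the first committed step. It had 64 and 115 counts in the shControl libraries and 78 and 126 in the shLmna libraries. The levels were 19.8 and 30.8 CPM against 30.9 and 34.3 CPM, so that shControl 2 lay almost at shLmna 1. The log2 fold change was 0.36 (SE 0.240). It was 0.09 without shControl 1 and 0.91 after a correction for GC content. Gart, a protein with several activities of the route, had 563 and 590 counts in the shControl libraries and 507 and 655 in the shLmna libraries. Its level was 174 and 158 CPM against 201 and 179 CPM, without overlap, and its log2 fold change was 0.19 (SE 0.125), or 0.11 without shControl 2 or shLmna 1. Pfas, which turns formylglycinamide ribonucleotide into formylglycinamidine ribonucleotide, was among the least counted members, with 58 and 50 counts in the shControl libraries and 52 and 51 in the shLmna libraries. At 18.0 and 13.4 CPM against 20.6 and 13.9 CPM its groups overlapped. Its log2 fold change of 0.12 (SE 0.279) turned to -0.09 without shControl 2 and to -0.16 without shLmna 1.

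Paics, which carries out a carboxylation and the step after it, was the synthesis gene that was lower with the hairpin. It had 757 and 873 counts in the shControl libraries and 415 and 715 in the shLmna libraries. At 235 and 234 CPM against 164 and 195 CPM the groups did not overlap, and the means were 234 ± 0.526 and 180 ± 21.7 CPM (SD, n = 2). The log2 fold change was -0.38 (SE 0.129), and -0.26 without shLmna 1. Atic, which closes the purine ring to give IMP, had 998 and 863 counts in the shControl libraries and 827 and 1320 in the shLmna libraries. It was at 309 and 231 CPM against 327 and 360 CPM, a log2 fold change of 0.35 (SE 0.154) that was 0.15 without shControl 2 and 0.58 without shControl 1. Within a library, Ppat had 0.0845 and 0.132 counts for each Paics count in shControl and 0.188 and 0.176 in shLmna.

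In all, 2 of the 10 members, Hprt and Impdh1, were lower at an adjusted p under 0.05 in the edgeR fit, where 9.74% of the 9150 tested genes were, and 0 were higher, where 5.48% were. At an unadjusted p under 0.05, 4 members passed, where 30.1% of tested genes did. By the study's limits (adjusted p under 0.05, log2 fold change above 1 in size and mean normalized count above 5), 1 member was called lower and 0 higher, against 5.88% and 1.76% of all tested genes. The groups did not overlap for 8 of 10 members and for 60.1% of tested genes. As the comparison itself chose the members, nothing is read from these counts. The median log2 fold change was 0.11 over the members and -0.00107 over all tested genes, and 4 of 10 members and 50.1% of tested genes were below 0.

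The count of Hprt came from a 3′ end with 36.6% G and C. Among the 926 tested genes within 2 percentage points of that value, 179 (19.3%) were called lower and 42 (4.54%) higher. Around Impdh1, at 58.7%, 13 of 683 genes (1.90%) were called lower, and around Ppat, at 32.3%, 134 of 313 (42.8%) were. The 3′ ends of Aprt (58.5%), Gart (51.9%), Impdh2 (49.5%), Atic (46.5%), Pfas (40.8%), Paics (40.5%) and Adk (40.2%) were in classes where 1.09% to 6.02% were called lower. With a correction for the trend of counts with GC content the log2 fold change of Hprt was -3.0 and that of Impdh1 -0.82. Lmna, at 51.4%, was in a class with 1.21% called lower. The correction follows the typical trend of a GC class, and around Hprt the median log2 fold change was -0.05. It could therefore move Hprt little, whatever the share called lower. The part of base composition in the differences, those of Hprt and Impdh1 included, was not tested.

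**Figure D2:**
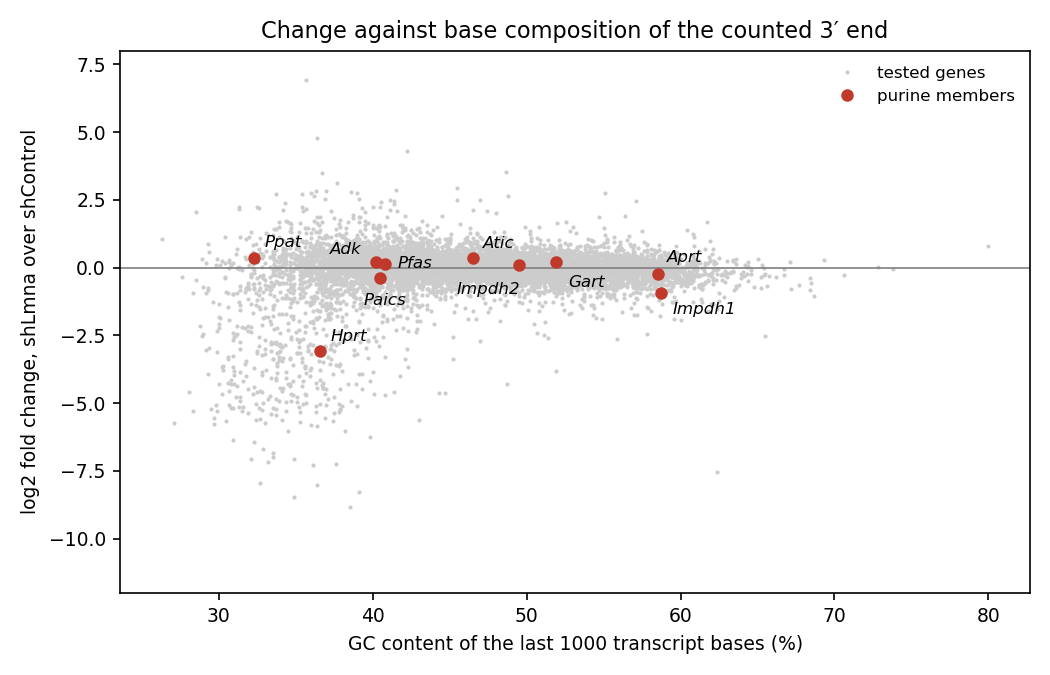
Log2 fold change (shLmna over shControl) against the GC content (%) of the last 1000 transcript bases for 8808 tested genes in grey, with the 10 members in red. Low fold changes are frequent below 40% GC, where Hprt lies at -3.08, while Ppat lies above 0 at the lowest GC content of the members.

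The rest of purine metabolism was taken from a list of 48 other genes of purine synthesis, interconversion and breakdown, of which 36 had enough counts to be tested. In the edgeR fit 2 fell and 2 rose at an adjusted p under 0.05, and 9 passed an unadjusted 0.05. The shares of all tested genes were 9.74%, 5.48% and 30.1%, against which the counts of this list and of the 3 lists after it are to be read. A fit without 1 library leaves 1 library in that group and takes its spread from the other group alone. An adjusted p above 0.05 there can come from the smaller fit and is no finding about a single gene. The median log2 fold change was -0.0003. Adss and Adssl1 encode the isozymes of adenylosuccinate synthase, which takes IMP towards AMP. Adss had 147 and 251 counts in the shControl libraries and 50 and 116 in the shLmna libraries, and fell by 1.11 on the log2 scale (SE 0.256, edgeR adjusted p = 0.0177). Adssl1 had 79 and 96 against 24 and 49 counts, and also fell by 1.11 (SE 0.248, edgeR adjusted p = 0.0151). In neither gene did the groups overlap, and the adjusted p was 0.130 and 0.110 without shLmna 1. The 3′ end of Adss has 34.5% G and C.

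Ak6, an adenylate kinase, had 243 and 290 counts in the shControl libraries and 255 and 418 in the shLmna libraries and rose by 0.49 on the log2 scale (edgeR adjusted p = 0.0350). About 10.1% of its counted 31-base words occur in other genes, Taf9 overlaps it, and the adjusted p was 0.104 without shLmna 1 and 0.237 without shLmna 2. Rrm2b, a small subunit of ribonucleotide reductase, had 1 and 10 counts in the shControl libraries and 19 and 25 in the shLmna libraries. It rose by 2.16 (SE 0.612, edgeR adjusted p = 0.0410), with an adjusted p of 0.0723 and a value of 1.40 without shControl 1, and a value of 4.35 without shControl 2. Without shLmna 1 or 2 its adjusted p was 0.211 and 0.228. The 3′ end of Rrm2b has 31.3% G and C. The other reductase genes, Rrm1 and Rrm2 (35.7% and 38.8% G and C), had log2 fold changes of 0.11 and -0.07 and did not pass.

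Several genes next to the members had too few counts to pass the low-count filter. Reads were counted only at the annotated 3′ end, so so low a count is not evidence that a transcript was absent. The reason for these low counts was not tested. Adsl, whose step lies between those of Paics and Atic on the route to IMP, had 1 and 2 counts in the shControl libraries and 0 and 0 in the shLmna libraries. Gmps, which follows the IMP dehydrogenases, had 1 count in shControl 1 and 0 in the others, and Pnp, which releases the bases that HPRT uses, had 0 in all. Prps2 had 9 and 27 counts in the shControl libraries and 4 and 5 in the shLmna libraries. Prps1, which makes the ribose donor used by HPRT, APRT and PPAT, had 91 and 185 against 63 and 82 counts, or -0.73 on the log2 scale (edgeR adjusted p = 0.101).

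Formyl groups and glycine reach purine synthesis through folate metabolism. Of 25 one-carbon and serine genes 21 were tested, 3 fell and 1 rose at an adjusted p under 0.05 in edgeR, 8 passed an unadjusted 0.05, and the median log2 fold change was 0.08. Ggh, the lysosomal gamma-glutamyl hydrolase of folates, had 57 and 63 counts in the shControl libraries and 2 and 5 in the shLmna libraries. It fell by 3.90 on the log2 scale (SE 0.392, edgeR adjusted p = 0.000169), and its 3′ end has 35.7% G and C, close to that of Hprt. Slc25a32, the mitochondrial folate carrier, had 22 and 34 against 1 and 7 counts and fell by 2.62 (SE 0.552, edgeR adjusted p = 0.0115). Without shLmna 1 its adjusted p was 0.0942, and without shLmna 2 its value was -4.19. Gcsh of the glycine cleavage system had 238 and 276 against 95 and 171 counts and fell by 0.80 (edgeR adjusted p = 0.00890), while the value was -0.66 with an adjusted p of 0.102 without shLmna 1. Aldh1l2, a mitochondrial formyltetrahydrofolate dehydrogenase, had 40 and 49 against 60 and 86 counts and rose by 0.88 (edgeR adjusted p = 0.0271). The value was 0.88 or 0.91 without shLmna 1 or 2. Its 3′ end has 37.5% G and C and overlaps the annotated gene D10Wsu102e on the opposite strand, whose reads cannot be told apart.

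In the parallel pyrimidine route 15 of 22 genes were tested, and 1 fell and 1 rose in edgeR, with 3 at an unadjusted p under 0.05 and a median log2 fold change of -0.09. Uck2, a uridine and cytidine kinase, had 509 and 962 counts in the shControl libraries and 276 and 470 in the shLmna libraries and fell by 0.81 (SE 0.208, edgeR adjusted p = 0.0282). It was at -0.41 without shControl 2, and its adjusted p ran from 0.0724 to 0.193 without shControl 2, shLmna 1 or shLmna 2. Cda, cytidine deaminase, had 6 and 4 against 19 and 32 counts and rose by 2.47 (SE 0.460, edgeR adjusted p = 0.00644), with an adjusted p of 0.0509 or 0.133 without shLmna 1 or 2. Cad, which starts pyrimidine synthesis as PPAT starts that of purines, had a log2 fold change of -0.20 and did not pass. With DESeq2 in place of edgeR, Adssl1, Ak6 and Rrm2b of the purine list, Slc25a32 and Aldh1l2 of the one-carbon list and Cda of the pyrimidine list did not pass, with adjusted p from 0.0659 to 0.254.

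**Figure D3:**
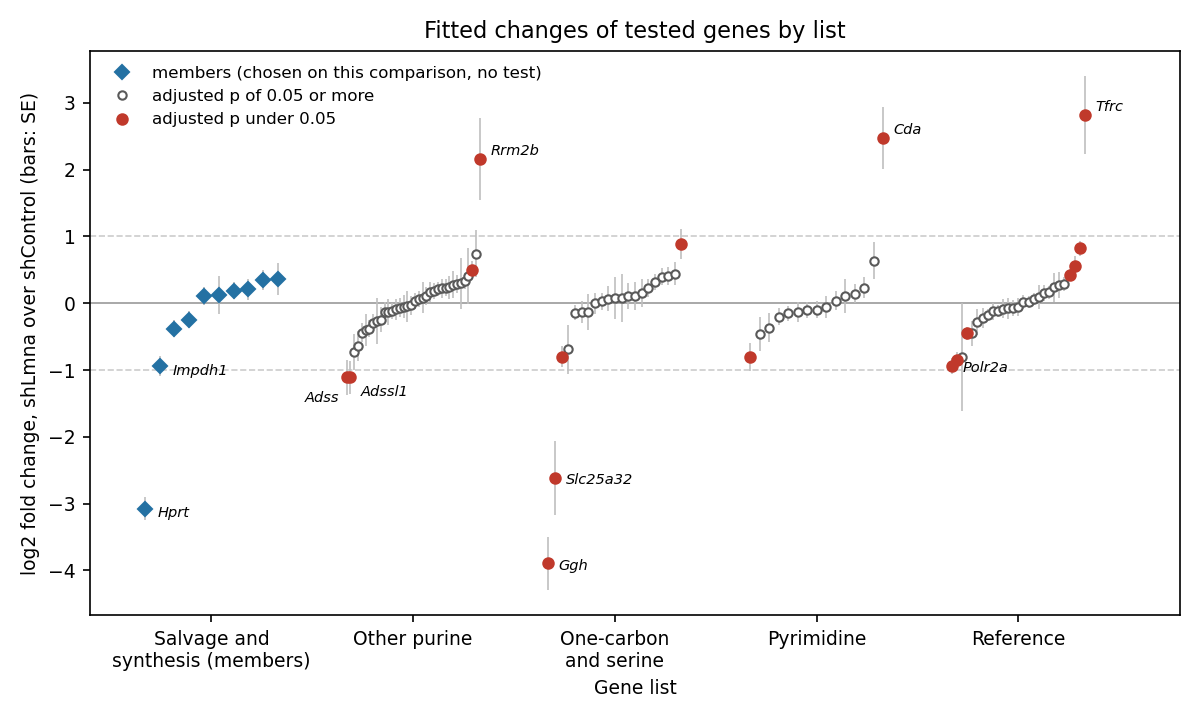
Log2 fold change (shLmna over shControl) of each tested gene in 5 lists, with bars for the SE. Diamonds mark members, whose test results are not shown. Open circles mark an adjusted p of 0.05 or more and filled circles one below it. Hprt at -3.08 lies far below the other members, Ggh at -3.90 and Slc25a32 at -2.62 lie far below the other one-carbon genes, and most genes lie within 1 of no change.

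Hprt is commonly used to normalize other transcripts, so it was set beside 27 usual reference genes, all of which were tested. Of these, 3 fell and 4 rose at an adjusted p under 0.05 in edgeR, 9 passed an unadjusted 0.05, and the median log2 fold change was -0.06. Polr2a, a subunit of RNA polymerase II, had 1036 and 1303 counts in the shControl libraries and 433 and 650 in the shLmna libraries and fell by 0.94 (edgeR adjusted p = 0.000794). Sdha of the respiratory chain fell by 0.86 (edgeR adjusted p = 0.00149), with a value of -0.79 without shLmna 2. Ldha, lactate dehydrogenase, fell by 0.45 (edgeR adjusted p = 0.0155), with values of -0.50 and -0.39 without shLmna 1 or 2. Of the counted words of Ldha 29.0% occur in other genes. Ywhaz, a 14-3-3 protein gene, rose by 0.82 (edgeR adjusted p = 0.00149).

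The 3′ end of Tfrc, the transferrin receptor, has 37.0% G and C. Tfrc had 11 and 178 counts in the shControl libraries and 507 and 626 in the shLmna libraries. It rose by 2.81 on the log2 scale (SE 0.584, edgeR adjusted p = 0.0106), but the shControl libraries differed widely. The value was 5.74 without shControl 2 and 1.96 without shControl 1, the DESeq2 adjusted p was 0.299, and the adjusted p was 0.0596 or 0.0885 without shLmna 1 or 2. Alas1, the first enzyme of heme synthesis, rose by 0.56 (edgeR adjusted p = 0.0257, and 0.223 or 0.0683 without shLmna 1 or 2, and 0.0881 in DESeq2). Rpl32 rose by 0.42 (edgeR adjusted p = 0.0134, and 0.0756 or 0.141 without shLmna 1 or 2), and 57.7% of its counted words occur in other genes.

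Actb, B2m, Tbp and Ppia had log2 fold changes of 0.06, -0.07, -0.28 and -0.07, with edgeR adjusted p = 0.691, 0.794, 0.367 and 0.752. That of Tbp was -0.17 without shControl 2, and those of Actb, B2m and Ppia took the other sign in at least 1 alternative. Hprt counts were divided by those of each reference gene in the same library, which needs no scaling between libraries. For each Actb count Hprt had 0.0318 and 0.0404 counts in the shControl libraries and 0.00416 and 0.00402 in the shLmna libraries, a mean difference of -3.13 on the log2 scale. The differences were -2.97 against B2m, -2.78 against Tbp and -3.0 against Ppia, and for each of these genes the groups did not overlap.

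Gapdh gave another picture. It had 2257 and 2015 counts in shControl, 86 in shLmna 1 and 2452 in shLmna 2, so that its level was 619 ± 113 CPM in shControl and 351 ± 448 CPM in shLmna (SD, n = 2). The log2 fold change of -0.80 did not pass (edgeR adjusted p = 0.551), and it was 0.11 without shLmna 1 and -4.17 without shLmna 2 (edgeR adjusted p = 0.00133). Without a low-count filter the value of -0.80 passed (edgeR adjusted p = 1.56e-07). The log2 ratio of Hprt to Gapdh was -2.53 and -1.90 in shControl and -1.03 and -5.48 in shLmna, so one shLmna library was above and the other below both controls. Of the 31-base words in the counted end of Gapdh 97.5% occur in other genes, 319 in number. The 3′ ends of Gapdh and Rpl32 overlap the annotated genes Iffo1 and Cand2 on the opposite strand, whose reads cannot be told apart. The part of such sharing or overlap in the low Gapdh count of shLmna 1 was not tested.

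**Figure D4:**
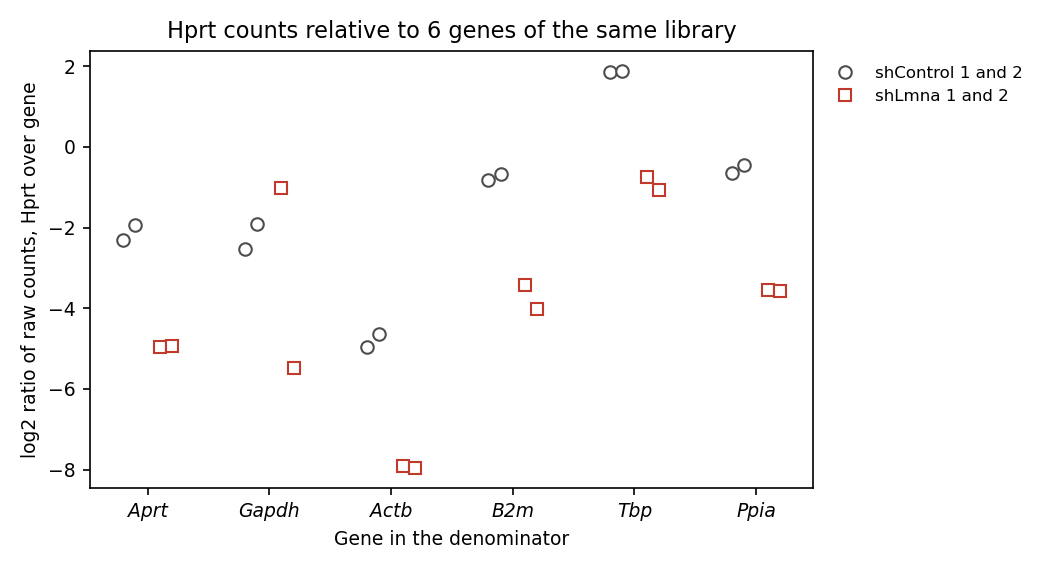
Log2 ratio of raw Hprt counts to the counts of 6 genes of the same library, with circles for shControl 1 and 2 and squares for shLmna 1 and 2. Over Aprt, Actb, B2m, Tbp and Ppia both shLmna libraries lie below both shControl libraries, while over Gapdh they lie at -1.03 and -5.48, on either side of them.

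The genes most like Hprt in pattern were found by the Euclidean distance of log2 CPM (with a prior count of 2), centred on the mean of each gene, over the 4 libraries. They were Fam45a at 0.115, Nek1 at 0.117, Tmem30a at 0.147, Gas2 at 0.156 and Pde4b at 0.199. Tmem30a had 132 and 192 counts in the shControl libraries and 15 and 20 in the shLmna libraries, the nearest of the 5 to Hprt in abundance. Fam45a had 20 and 26 against 1 and 1, Nek1 12 and 18 against 0 and 0, Gas2 22 and 33 against 1 and 1, and Pde4b 46 and 53 against 3 and 4. The 3′ ends of these 5 genes had 33% to 37.6% G and C. Fam45a, Nek1 and Gas2 had at most 1 count in each shLmna library, where the log2 value rests mainly on the prior count, so their likeness to Hprt depends on it.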

How the data were processed

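RNA of 4 B16F10 libraries was profiled by bulk MARS-seq. According to the study's methods and the submitters' processing notes, the authors trimmed reads with Cutadapt, aligned them to mm10 with STAR 2.4.2a and used HTSeq to count those in the final 1000 bases of each RefSeq gene or up to 100 bases past it, marking duplicates of unique molecular identifiers (UMIs). Raw counts by gene symbol were deposited by the authors and used for the results here, and no source says if duplicates had been removed from them. A deposited table of signal holds counts divided by DESeq2 size factors, and the p-values deposited beside it, of the authors' own comparison, were not used. In each library 100% of its values were whole multiples (tolerance 0.01) of a single step, which was 1.001 in shControl 1 and thus close to no scaling, and the matrix exceeded these recovered counts by a factor of 1.078 to 1.089. Log2 values corrected with ComBat were deposited by the authors without naming the batches.

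Groups and replicate numbers came from the sample titles. Counts were fitted in edgeR 4.0.16 (R 4.3.3) and tested by its quasi-likelihood F test (TMM scaling, default filterByExpr, group as the one term, two-sided), adjusted by Benjamini-Hochberg over 9150 genes, and the script was checked on simulated counts. Replicates differed by more than sampling noise (chi-square per degree of freedom 6.96 and 3.91). SE came from the F statistic. GC content and shared 31-base words were taken from GENCODE transcripts of GRCm38, for 96.3% of tested genes in the case of GC. The study used its 3 limits for a call with DESeq2. DESeq2 1.42.0, other scalings, no filter, recovered counts, ComBat values with limma 3.58.1, a GC correction, a replicate block and leaving out each library were alternatives.

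Genes named are the members, Lmna, every gene of the other purine, one-carbon, pyrimidine and reference lists at an adjusted p under 0.05, Gapdh, Actb, B2m, Tbp and Ppia, and the 5 genes nearest to Hprt. Rrm1, Rrm2, Cad, Adsl, Gmps, Pnp, Prps1, Prps2 and the named markers of melanocytes and of other cell types were added after their values were seen. The members and lists were chosen with earlier results of these data known.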

Additional observations from a re-analysis of the deposited data

How the results depend on the processing

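With 2 libraries per group the spread rests on few degrees of freedom. Without 1 library it rests on the other group alone, so calls of those fits are not like those of the main fit. Over the 12 alternatives, which refit the comparison that chose the members, the log2 fold change of Hprt ran from -3.20 to -1.08 and that of Impdh1 from -1.14 to -0.42. The replicate numbers do not pair the libraries (correlation of same-numbered deviations 0.013 over 9150 genes).

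Over all genes 538 were called lower and 161 higher. DESeq2 called 391 and 66, and ComBat values 28 and 2. The fit without a low-count filter called 701 and 207, and the replicate block 605 and 209. Fold changes were smaller in ComBat values (-1.08 for Hprt, -1.54 for Lmna) under the same limit of 1, so their calls are not like the others. At an adjusted p under 0.05 alone, more genes passed in ComBat values than in the main fit in each list outside the members. The share of lower calls was 77.0% in the main analysis and 93.3% in ComBat values. Leaving out 1 library gave 387 to 744 lower and 60 to 232 higher calls.

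The refits use the comparison that chose the members, so nothing is read from which members pass below. At an adjusted p under 0.05, 2 members were lower and 0 higher. ComBat values gave 4 (Aprt and Paics added) and 2 (Adk and Gart), and the GC correction (Ppat) and the replicate block (Atic) each gave 1 higher. Paics also passed as lower without a filter, with the GC correction and with the replicate block, and Atic as higher without shControl 1. Without 1 library 2 were lower, 0 to 1 were higher and 1 to 2 were called lower.

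Of the other purine genes 2 were lower and 2 higher. Lower counts were 1 in DESeq2, 5 without a filter, 8 in ComBat values and 5 with the replicate block. Higher counts were 0 in DESeq2, 9 in ComBat values and 1 with the GC correction. Without 1 library the ranges were 0 to 5 and 0 to 2.

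Of the one-carbon genes 3 were lower, or 1 to 3 without 1 library. Instead of 1 higher there were 0 in DESeq2, 2 with library totals, 4 without a filter, 2 in recovered counts, 6 in ComBat values, 4 with the replicate block and 0 to 4 without 1 library. For pyrimidine genes, 1 lower and 1 higher became 2 and 2 in ComBat values, 0 higher in DESeq2, and 0 to 1 in either direction without 1 library. For reference genes, 3 lower and 4 higher became 6 lower in ComBat values, 2 higher in DESeq2, and 2 to 4 lower and 1 to 5 higher without 1 library.

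Log2 fold changes that took the other sign without 1 library were those of Impdh2 (range -0.0127 without shLmna 1 to 0.25 without shLmna 2), Pfas (-0.09 without shControl 2, and from -0.16 without shLmna 1 to 0.41 without shLmna 2), Gapdh (0.11 without shLmna 1, -4.17 without shLmna 2), B2m (0.13 without shLmna 1, -0.31 without shLmna 2) and Ppia (0.0099 without shLmna 2, -0.13 without shLmna 1). That of Actb did so in other settings (-0.0016 in recovered counts, -0.0022 in ComBat values, -0.0062 with the GC correction). In ComBat values most named genes differed by less, though not Gapdh (-0.93, and -1.69 with an adjusted p of 1.84e-08 with the replicate block), with -0.50 for Ggh, -0.35 for Adss and 0.25 for Rrm2b, and Ak6 missed the limit with the GC correction (adjusted p 0.0517). The cause of these changes was not tested.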
